A study of Mus musculus with 2 samples.

Results

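Meningeal fibroblasts, the collagen-producing cells of the membranes around the brain, were a small class among the cells of the mouse dorsal telencephalon profiled by single cell RNA sequencing at embryonic day 14.5. They comprised 188 of 12936 kept barcodes (15033 in all), 45 in replicate 1 and 143 in replicate 3. A barcode stands for 1 droplet, and a unique molecular identifier (UMI) for 1 captured RNA molecule. The cells were chosen by measured values. A barcode had to hold 1500 to 60000 UMIs with under 10% mitochondrial UMIs, and at least 10 UMIs of *Col1a1*, *Col1a2*, *Col3a1*, *Dcn* and *Lum* together. It could hold at most 4 UMIs of the mural genes *Rgs5*, *Kcnj8* and *Abcc9*, at most 3 of the endothelial genes *Cldn5*, *Pecam1* and *Cdh5*, and at most 3 of the neuronal genes *Neurod2* and *Neurod6*. These genes are therefore a description of the class and were not tested.

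The tissue came from embryos labelled WT in the series of control animals of an Eomes-Cre mouse line, with EoMltt3 in the sample titles and EomesMllt3 in the design text. Whether the embryos carried a Cre or a floxed allele is not given by the labels, the study names a C57BL/6 J background, and the labels name no treatment. The source was brain hemispheres, the cells were released with papain, and 1 droplet library was made per sample. How many embryos went into each library is not given by the labels or the methods, and each sample was loaded on its own, so that p-values measure the spread between these 2 libraries, which may be technical.

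The meninges form from the pia, the arachnoid and the dura, with fibroblasts in each layer. Pial fibroblasts lie against the brain surface, where basement membrane proteins anchor the end-feet of radial glia. The meninges around the forebrain come largely from the neural crest, and they release retinoic acid, bone morphogenetic proteins and the chemokine CXCL12, which act on progenitors, Cajal-Retzius cells and migrating interneurons beneath them. Arachnoid cells are known for junctions and solute carriers that separate the fluid of the brain from the body.

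Whole-library depth was 64182006 UMIs over 6163 barcodes in replicate 1 and 93295807 UMIs over 8870 barcodes in replicate 3. The fibroblast barcodes of the libraries summed to 626628 and 1822694 UMIs, with medians of 13191 and 11358 UMIs and 4244 and 3839 detected genes per barcode. All values below are given for replicate 1 first and replicate 3 second, and levels are in CPM, the UMIs of a gene in a class scaled to a common total for all sums. A level is set against the same gene in another class and not against other genes. The libraries shared 23 barcode sequences, of which 17 were kept and 0 were fibroblasts. Doublets were scored but not removed, and 3 and 5 fibroblasts were predicted doublets. The classes compared were pericytes (47 and 46 barcodes), endothelial cells (25 and 40), radial glia (535 and 749), Cajal-Retzius cells (48 and 81) and projection neurons (2401 and 2872), each chosen by the UMI sum of its own genes with limits on genes of other classes. Among these limits, radial glia, Cajal-Retzius cells and projection neurons could hold at most 2 UMIs of the 5 fibroblast genes.

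The label was held up against markers outside the rule. *Pdgfra*, a growth factor receptor of mesenchymal cells, stood at 276 and 182 CPM in fibroblasts and at 0 in both pericyte sums. *Foxc1*, a forkhead factor required for the meninges, stood at 193 and 117 CPM, *Tbx18* at 287 and 295 CPM and *Twist1*, a mesenchymal factor, at 91 and 86.1 CPM. In radial glia these 3 factors reached at most 0.497 CPM, so the fibroblast values lay apart from those of the neural cells. Pericytes were less apart. In the tests described below, *Pdgfra* and *Col6a1* were higher than in pericytes at an edgeR adjusted p under 0.05. *Foxc1*, *Foxd1*, *Tbx18*, *Twist1*, *Zic1*, *Fn1* and *Col5a1* were not (edgeR adjusted p from 0.085 to 0.389). *Fn1* did not pass against endothelial cells either (log2 fold change 0.0077, edgeR adjusted p = 0.996). All genes of the marker lists for other cell types were then summed. The list of macrophage genes summed to 12.8 and 39.5 CPM, with 5 of 10 genes at 0. Smooth muscle genes summed to 159.6 and 113.6 CPM against 999.5 and 1549 CPM in pericytes, and *Myh11* and *Cnn1* were at or near 0. Red blood cell genes summed to 81.4 and 381.9 CPM, against 121.7 and 382.9 CPM in the pericytes of the same libraries.

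In the sums over pericyte, endothelial, radial glial and choroid plexus markers, most UMIs came from a single gene of each list. Pericyte markers summed to 971.9 and 1148 CPM, of which *Vtn*, the gene of vitronectin, gave 820.3 and 963 CPM. Endothelial markers summed to 434.1 and 479 CPM, of which *Ramp2*, a receptor subunit of adrenomedullin signalling, gave 408 and 419.7 CPM. Radial glial markers summed to 1240 and 1457 CPM, of which the glutamate transporter *Slc1a3* gave 1079 and 1140 CPM. This was above its 601 and 419.8 CPM in radial glia, a class that was itself chosen partly by *Slc1a3*, so that no test was made. Choroid plexus markers summed to 276.1 and 272.7 CPM, mostly *Enpp2*, and the transthyretin gene *Ttr* stood at 0 and 31.8 CPM. Neuronal markers summed to 413.3 and 310.5 CPM against 6850 and 6578 CPM in projection neurons, and cartilage, bone and muscle markers to 38.3 and 47.2 CPM. Schwann cell and melanocyte markers summed to 30.3 and 21.4 CPM and Cajal-Retzius markers to 35.1 and 8.23 CPM. Of 39 Hox genes, which mark the trunk and hindbrain, 38 were at 0 and *Hoxc4* had a single UMI.

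The rule genes stood at 611.2 and 654 CPM for *Lum*, 671.8 and 577.7 CPM for *Col1a1*, 1289 and 1054 CPM for *Col1a2*, 1475 and 1237 CPM for *Col3a1* and 1878 and 1776 CPM for *Dcn*. Their sum per fibroblast ranged from 10 to 183 UMIs with a median of 85 in replicate 1 and from 10 to 251 with a median of 59 in replicate 3. Just inside the limit, with sums of 10 to 14, lay 1 and 6 barcodes, with medians of 5362 and 4993.5 UMIs in all. Just outside, with sums of 5 to 9, lay 6 and 16 barcodes, with medians of 12654 and 16530.5 UMIs. Of the 68 and 180 kept barcodes with a sum of at least 10, the mural limit removed 10 and 19, the endothelial limit 7 and 7 and the neuronal limit 6 and 12, with some removed by several.

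Fibroblasts made up 0.825% of the kept barcodes in replicate 1 (exact 95% binomial interval 0.603 to 1.10) and 1.91% in replicate 3 (1.61 to 2.25). The mean of the shares was 1.37% ± 0.768 (SD, n = 2). The intervals of the libraries did not overlap, although they cover counting error only.

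Fibroblasts were compared with pericytes, endothelial cells and radial glia over sums per class and library with the quasi-likelihood test of edgeR. The p-values were adjusted after Benjamini and Hochberg over the 9968 genes tested, and the threshold was 0.05. Against pericytes, the nearest class in kind, 8.71% of the tested genes were higher in fibroblasts and 8.8% were lower. Against endothelial cells 14.2% were higher and 14.1% lower, and against radial glia 26.3% were higher and 22.6% lower. Higher than in all 3 classes were 3.91% of the genes, and lower than in all 3 were 0.863%. The median log2 fold changes over all tested genes were 0.005, 0.037 and 0.018 against pericytes, endothelial cells and radial glia. The counts of the gene lists given next are to be read against these shares. A gene entered the test also when it was expressed in fibroblasts alone, so the counts describe the members that passed the filter on low counts and not the whole of a list.

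Some barcodes of the comparison classes held UMIs of the 5 genes that chose the fibroblasts. In replicate 1, 2 of the 25 endothelial barcodes had at least 10 UMIs of these genes, with a highest sum of 180, while none of the 40 in replicate 3 had over 1. The replicate 1 endothelial values of several genes high in fibroblasts came from these barcodes. Without them the endothelial level fell from 59.95 to 0 CPM for *Slc6a13*, from 49.96 to 0 CPM for *Aldh1a2*, from 44.96 to 0 CPM for *Crabp2* and from 94.92 to 33.86 CPM for *Cxcl12*. Of the pericytes, 10 of 47 and 18 of 46 had at least 10 UMIs of the 5 genes, with highest sums of 19 and 31. In the pericyte sums *Col3a1* stood at 276 and 481 CPM and *Col1a2* at 185 and 169 CPM, whereas *Dcn* stood at 6.86 and 9.38 CPM, *Lum* at 0 and 6.25 CPM and *Col1a1* at 13.7 and 9.38 CPM. Folds are given as fitted on all barcodes. Leaving out the pericytes and endothelial cells with at least 10 such UMIs gained the call of 14 named genes against pericytes and lost that of 4, and gained 7 against endothelial cells. This limit rests on the genes that chose the fibroblasts, so the calls it gained are no separate support.

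**Figure D1:**
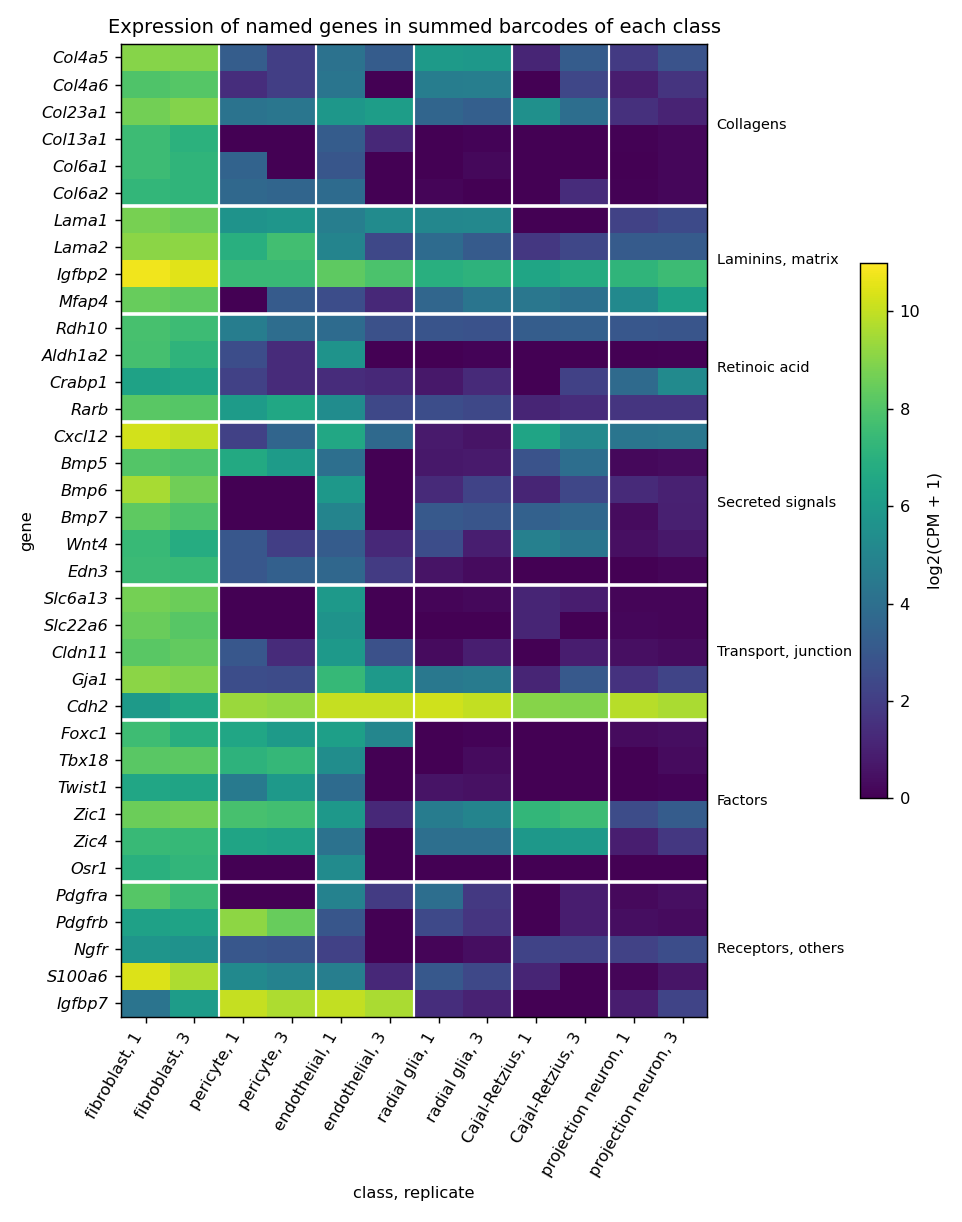
Levels of named genes, as log2(CPM + 1) in color, in the summed barcodes of 6 classes (columns, replicates 1 and 3 side by side) with genes grouped by role (rows). Most genes shown were brightest in the 2 fibroblast columns, while *Cdh2*, *Pdgfrb* and *Igfbp7* were darker there than in pericytes, and the replicate 1 endothelial column was brighter than that of replicate 3 for many fibroblast genes.

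Collagens other than the rule genes were higher in most tested members against endothelial cells and radial glia, and in fewer against pericytes. Of 23 tested collagen genes, 11 were higher and 2 lower than in pericytes, 16 were higher and 0 lower than in endothelial cells, and 19 were higher and 1 lower than in radial glia. The 9 that were higher than in all 3 classes were *Col4a5*, *Col4a6*, *Col6a1*, *Col6a2*, *Col6a6*, *Col11a1*, *Col13a1*, *Col23a1* and *Col26a1*. The median log2 fold changes of the list were 2.02, 3.36 and 4.22 in the 3 comparisons.

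Among the chains of collagen IV, the network collagen of basement membranes, the levels split by gene. *Col4a1*, a chain of the collagen IV found in every vessel wall, stood at 1122 and 1238 CPM in fibroblasts, 2272 and 1777 CPM in pericytes and 996 and 719 CPM in endothelial cells. The pericyte values were above both fibroblast values, but the difference missed the threshold (log2 fold change -0.76 ± 0.24 (SE), edgeR adjusted p = 0.0556), and passed it with the library as a block (log2 fold change -0.74). *Col4a2*, its partner chain, stood at 689 and 644 CPM against 1233 and 1013 CPM in pericytes and was lower (log2 fold change -0.74 ± 0.21 (SE), edgeR adjusted p = 0.0386). This call was lost with pericytes of at most 9 fibroblast-gene UMIs (-0.52).

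The chains *Col4a5* and *Col4a6* went the other way. *Col4a5* stood at 512 and 500.4 CPM in fibroblasts, 8.57 and 3.12 CPM in pericytes, 16.6 and 8.33 CPM in endothelial cells and 62.7 and 57 CPM in radial glia, and it was higher than in pericytes (log2 fold change 6.34 ± 0.33 (SE), edgeR adjusted p = 7.45e-06), endothelial cells (log2 fold change 5.27 ± 0.29 (SE), edgeR adjusted p = 3.93e-06) and radial glia (log2 fold change 3.19 ± 0.20 (SE), edgeR adjusted p = 2.04e-06). *Col4a6* stood at 247 and 271 CPM in fibroblasts and 24.5 and 25.2 CPM in radial glia (log2 fold change 3.47 ± 0.32 (SE), edgeR adjusted p = 1.96e-05). In pericytes *Col4a6* had 3 UMIs in all, which gave a fibroblast to pericyte ratio of 108 (95% interval 36.8 to 525). For both genes the values of the fibroblast libraries lay above those of every other class. Each barcode was then thinned to 3000 UMIs, which left out 3 shallower fibroblasts of replicate 3, to compare shares of barcodes with a UMI at 1 depth. The median depths before thinning were 14112 and 15155 UMIs in radial glia. After thinning, *Col4a5* was detected in 66.7% and 70.0% of fibroblasts against 13.3% and 16.04% of radial glia (88.9% and 86.7% against 43.2% and 45.8% without thinning).

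**Figure D2:**
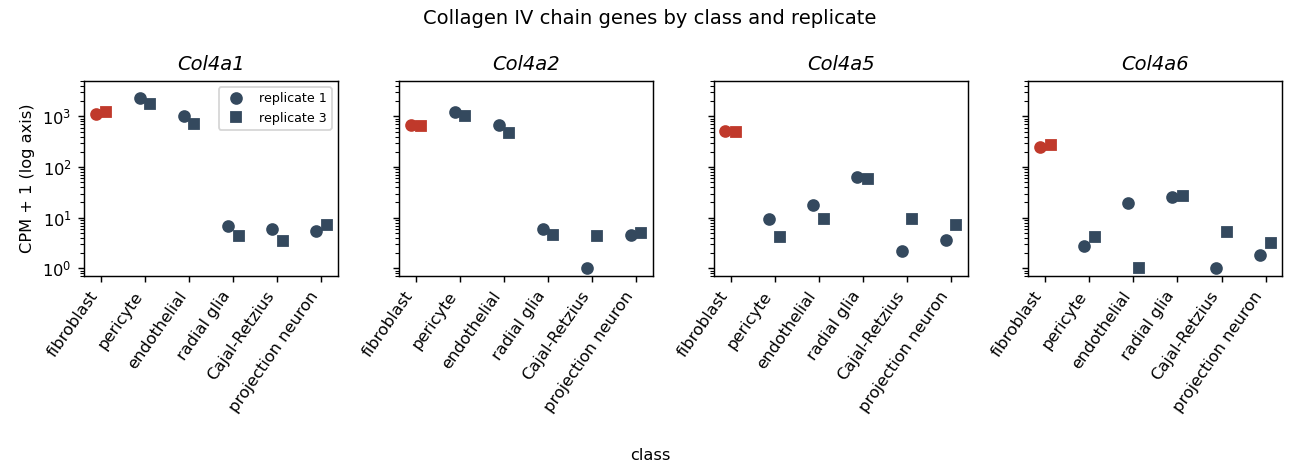
Levels of 4 collagen IV chain genes in CPM + 1 (log axis) by class, with fibroblasts in red, replicate 1 as circles and replicate 3 as squares. *Col4a1* and *Col4a2* were high in fibroblasts, pericytes and endothelial cells alike, whereas *Col4a5* and *Col4a6* were above 240 CPM in fibroblasts and under 65 CPM in each other class.

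*Col4a5* and *Col4a6* lie head to head on chromosome X, with start sites 1343 bases apart on opposite strands. The 250 bases before each start are shown because both genes were high in the same class, and were read from RefSeq promoters of build GRCm38.p6, chrX:141475169-141475418 on the plus strand and chrX:141474077-141474326 on the minus strand. The gene pairs shown here and below were chosen after their values were seen. Capitals mark matches on either strand to GGGCGG, the core of a GC box, and to CCAAT.
Col4a5: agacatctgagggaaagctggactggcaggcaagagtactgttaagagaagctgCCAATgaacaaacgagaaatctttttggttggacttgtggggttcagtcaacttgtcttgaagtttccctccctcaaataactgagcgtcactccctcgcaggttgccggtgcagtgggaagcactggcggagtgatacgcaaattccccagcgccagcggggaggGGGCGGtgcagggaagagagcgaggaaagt
Col4a6: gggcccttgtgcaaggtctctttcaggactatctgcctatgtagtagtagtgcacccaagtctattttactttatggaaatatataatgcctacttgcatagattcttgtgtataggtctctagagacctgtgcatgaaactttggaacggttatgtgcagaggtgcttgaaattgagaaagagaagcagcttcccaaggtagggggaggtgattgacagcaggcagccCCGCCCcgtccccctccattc
Of the 250 bases, 54.0% were G or C for *Col4a5* and 47.6% for *Col4a6*, against a median of 52.4% over 32807 windows of the same length. The *Col4a5* window held 1 GGGCGG and 1 CCAAT, and the *Col4a6* window 1 GGGCGG and 0 CCAAT. These letters occur in 32.7% and 33.8% of all windows. Neither TATAAA, in 12.4% of windows, nor GTAAACA, a forkhead-type motif in 3.16% of windows, was found in these 250 bases.

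Further collagens set fibroblasts apart from pericytes to differing degrees. *Col23a1*, a transmembrane collagen, stood at 402 and 498 CPM against 17.1 and 18.8 CPM in pericytes (log2 fold change 4.62 ± 0.25 (SE), edgeR adjusted p = 8.22e-06). *Col13a1*, another transmembrane collagen, stood at 187 and 133 CPM and at 0 in both pericyte sums, where 3 UMIs over the class would make it at least 59.9-fold higher. *Col6a1* and *Col6a2* encode chains of the beaded filament collagen VI. *Col6a1* stood at 184 and 144 CPM against 10.3 and 0 CPM in pericytes (log2 fold change 4.88 ± 0.60 (SE), edgeR adjusted p = 0.000494), a call lost under DESeq2, as was that against endothelial cells. *Col6a3*, the third chain of this collagen, stood at 131 and 133 CPM against 61.7 and 73.5 CPM, which missed the threshold (log2 fold change 0.97 ± 0.36 (SE), edgeR adjusted p = 0.102). Its call was gained with no filter on low counts (0.986) and with narrower limits on UMIs per barcode (0.988). It was also gained with pericytes of at most 9 fibroblast-gene UMIs (1.42), a limit that gives no separate support. The collagen V chains *Col5a1* and *Col5a2* were likewise not past the threshold against pericytes, at edgeR adjusted p = 0.0994 and edgeR adjusted p = 0.41, and *Col5a2* stood at 469 and 379 CPM against 285 and 308 CPM.

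Enzymes and chaperones that fold, cleave and cross-link collagen were higher in most tested members against radial glia. Of 24 tested, 8 were higher and 1 lower than in pericytes, 13 higher and 1 lower than in endothelial cells, 21 higher and 1 lower than in radial glia, and 6 higher than in all 3. The list medians were 0.60, 1.28 and 2.31. *Serpinh1*, the collagen chaperone HSP47, stood at 1224 and 1247 CPM against 931 and 1097 CPM in pericytes and 88.5 and 107 CPM in radial glia. It missed the threshold against pericytes (log2 fold change 0.30 ± 0.17 (SE), edgeR adjusted p = 0.284) and was higher than in radial glia (log2 fold change 3.77 ± 0.19 (SE), edgeR adjusted p = 6.11e-07). *Ppib*, a prolyl isomerase of the endoplasmic reticulum, stood at 862 and 952 CPM against 869 and 883 CPM in pericytes, values that overlap.

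Of 13 tested basement membrane genes, 3 were higher and 3 lower than in pericytes, 5 higher and 3 lower than in endothelial cells, and 11 higher and 0 lower than in radial glia, with medians of -0.09, 0.43 and 3.85. Against both vascular classes the members split. *Lama1*, the laminin chain of the early pial basement membrane, stood at 434 and 371 CPM against 49.7 and 54.7 CPM in pericytes and 25 and 38.9 CPM in endothelial cells. It was higher than in both (log2 fold change 2.94 ± 0.22 (SE), edgeR adjusted p = 2.97e-05, and log2 fold change 3.57 ± 0.23 (SE), edgeR adjusted p = 8.86e-06). *Lama2* stood at 543 and 563 CPM against 123 and 203 CPM in pericytes (log2 fold change 1.77 ± 0.39 (SE), edgeR adjusted p = 0.0124) and *Nid2*, a linker between laminin and collagen IV, at 391 and 258 against 46.3 and 46.9 CPM (log2 fold change 2.78 ± 0.35 (SE), edgeR adjusted p = 0.000549).
The related *Nid1* was lower than in pericytes, at 238 and 228 against 504 and 358 CPM (log2 fold change -0.87 ± 0.22 (SE), edgeR adjusted p = 0.0241). *Agrn*, the gene of the heparan sulfate proteoglycan agrin, stood at 39.9 and 42.2 CPM against 207 and 133 CPM in pericytes and 169.9 and 106 CPM in endothelial cells and was lower than in both (log2 fold change -2.0 ± 0.28 (SE), edgeR adjusted p = 0.000959, and log2 fold change -1.75 ± 0.28 (SE), edgeR adjusted p = 0.00129). *Lama4*, a vascular laminin chain, stood at 354 and 269 CPM against 603 and 449.8 CPM in endothelial cells, which missed the threshold (log2 fold change -0.80 ± 0.31 (SE), edgeR adjusted p = 0.084) but passed it with the library as a block (-0.79). *Sparc*, a collagen-binding matrix protein, was high in fibroblasts at 1577 and 1459 CPM and higher still in endothelial cells at 2716 and 2071 CPM (log2 fold change -0.69 ± 0.19 (SE), edgeR adjusted p = 0.0194).

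Elastic fiber and matricellular genes numbered 33 tested, of which 13 were higher and 4 lower than in pericytes, 17 higher and 2 lower than in endothelial cells, 24 higher and 3 lower than in radial glia, and 7 higher than in all 3. The medians were 1.85, 1.53 and 2.34. *Igfbp2*, a binding protein of insulin-like growth factors, stood at 1752 and 1440 CPM against 173 and 172 CPM in pericytes and 123 and 138 CPM in radial glia, and was higher than in both (log2 fold change 3.22 ± 0.20 (SE), edgeR adjusted p = 1.15e-05, and log2 fold change 3.72 ± 0.20 (SE), edgeR adjusted p = 8.82e-07). *Sparcl1*, a relative of *Sparc*, stood at 747 and 667 CPM against 698 and 537 CPM in endothelial cells (log2 fold change 0.16 ± 0.41 (SE), edgeR adjusted p = 0.825). *Mfap4*, an elastic fiber glycoprotein, stood at 348 and 307 CPM against 0 and 7.81 CPM in pericytes (log2 fold change 6.14 ± 0.51 (SE), edgeR adjusted p = 5.61e-05). The family member *Igfbp7*, a marker of brain vessels, went the opposite way, at 17.6 and 65.8 CPM in fibroblasts against 1032 and 789 CPM in pericytes (log2 fold change -4.25 ± 0.42 (SE), edgeR adjusted p = 0.000138) and 1016 and 786 CPM in endothelial cells (log2 fold change -4.29 ± 0.42 (SE), edgeR adjusted p = 7.79e-05). Of the 120 *Igfbp7* UMIs in replicate 3 fibroblasts, 47 were in 1 barcode and all were in 23 barcodes. *Fbn2*, the fibrillin of embryonic tissue, stood at 557 and 503 CPM against 130.3 and 194 CPM in pericytes and just missed the threshold (log2 fold change 1.72 ± 0.53 (SE), edgeR adjusted p = 0.0539), which it passed with the library as a block (1.69). *Postn*, the gene of periostin, did the same, at 353 and 295 CPM against 139 and 40.6 CPM (log2 fold change 1.87 ± 0.58 (SE), edgeR adjusted p = 0.0538; 2.04 with the block).

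**Figure D3:**
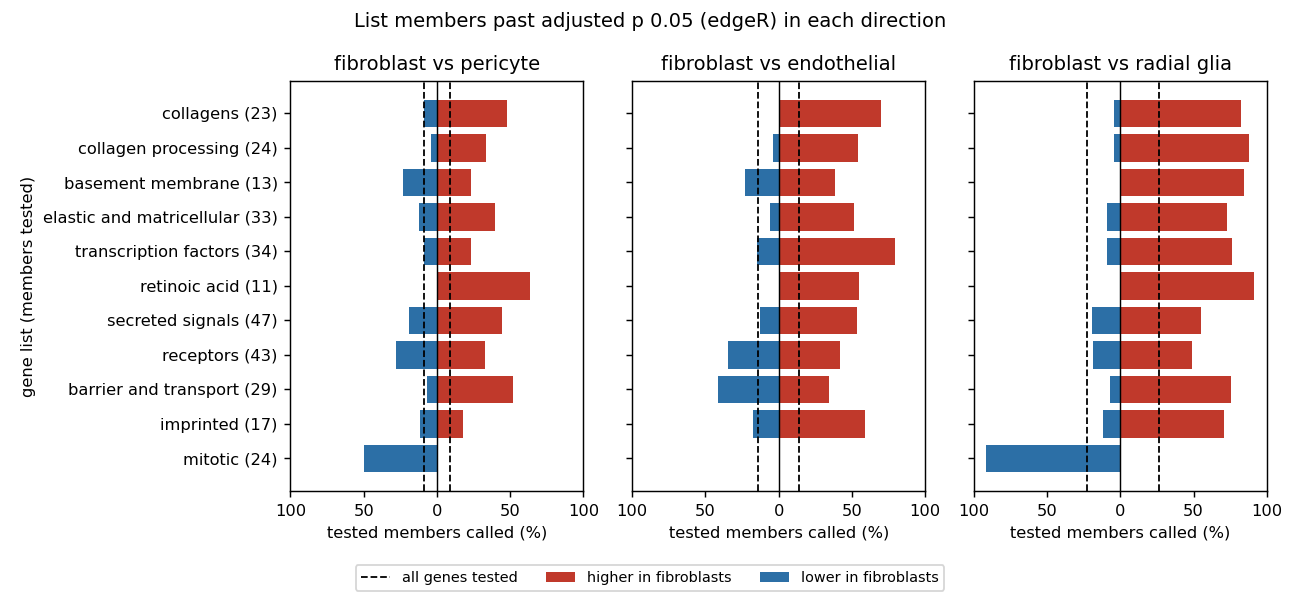
Percent of tested list members past the edgeR threshold (x axis, higher in fibroblasts to the right and lower to the left) for 11 gene lists (y axis, members tested in brackets) in 3 comparisons, with dashed lines at the percent of all 9968 genes. Retinoic acid genes had 7 of 11 members higher than in pericytes, beside 8.71% of all genes, whereas mitotic genes had 12 of 24 lower, beside 8.8%.

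Transcription factors known from the meninges and head mesenchyme mostly passed the threshold against endothelial cells and radial glia and not against pericytes. Of 34 tested, 8 were higher and 3 lower than in pericytes, against 27 higher and 5 lower than in endothelial cells and 26 higher and 3 lower than in radial glia. The median log2 fold changes were 0.87, 3.13 and 3.86, or 0.74, 3.01 and 4.14 with genes at 0 in the other class placed at their bound. *Zic1*, a zinc finger factor of the meninges and dorsal neural tube, stood at 373 and 394 CPM in fibroblasts, 219 and 200 CPM in pericytes, 56.6 and 1.39 CPM in endothelial cells and 23.9 and 30.5 CPM in radial glia. Both fibroblast values were above both pericyte values, yet the difference missed the threshold (log2 fold change 0.89 ± 0.49 (SE), edgeR adjusted p = 0.27), while that to radial glia passed it (log2 fold change 3.90 ± 0.51 (SE), edgeR adjusted p = 0.000184). Cajal-Retzius cells, which lie under the pia, held 156 and 184 CPM. *Zic4* gave 171 and 164 CPM against 84 and 78.1 CPM in pericytes (log2 fold change 1.05 ± 0.34 (SE), edgeR adjusted p = 0.0639), *Tbx18* 287 and 295 against 135 and 161 CPM (log2 fold change 0.98 ± 0.48 (SE), edgeR adjusted p = 0.212) and *Twist1* 91 and 86.1 against 22.3 and 61 CPM (log2 fold change 1.06 ± 0.46 (SE), edgeR adjusted p = 0.157). None of these 4 passed, and all 4 passed when pericytes with at least 10 fibroblast-gene UMIs were left out, with log2 fold changes of 0.76, 1.07, 1.43 and 1.58. For *Zic1* that fold was smaller than with all pericytes. All 4 also passed with no filter on low counts and with narrower limits on UMIs per barcode.
*Foxc1* stood at 89.2 and 62.5 CPM in pericytes (log2 fold change 1.0 ± 0.35 (SE), edgeR adjusted p = 0.085), and its higher level in fibroblasts passed the threshold with the library as a block (1.03).

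*Zic1* and *Zic4* form a second head-to-head pair, with start sites 3204 bases apart on chromosome 9, and both were detected in fibroblasts and pericytes. The 250 bases before each start in GRCm38.p6 (RefSeq), chr9:91365769-91366018 on the minus strand for *Zic1* and chr9:91368722-91368971 on the plus strand for *Zic4*, are shown with the same matches in capitals.
Zic1: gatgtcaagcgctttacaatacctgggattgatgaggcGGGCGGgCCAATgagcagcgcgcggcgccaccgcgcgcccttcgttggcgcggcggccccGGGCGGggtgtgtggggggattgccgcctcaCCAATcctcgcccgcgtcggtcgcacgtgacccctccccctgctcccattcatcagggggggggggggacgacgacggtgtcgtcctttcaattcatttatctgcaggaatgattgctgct
Zic4: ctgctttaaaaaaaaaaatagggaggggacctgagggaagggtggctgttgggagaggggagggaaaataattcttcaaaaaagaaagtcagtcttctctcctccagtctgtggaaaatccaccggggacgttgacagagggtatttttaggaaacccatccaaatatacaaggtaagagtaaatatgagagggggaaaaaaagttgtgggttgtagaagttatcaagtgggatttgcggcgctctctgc
The windows differed in composition, with 66.0% G or C for *Zic1* and 44.4% for *Zic4*. The *Zic1* window held 2 GGGCGG and 2 CCAAT, and the *Zic4* window held neither. A match is a run of letters and not evidence of binding.

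The factors that did set fibroblasts apart from pericytes included *Osr1*, *Msx1* and *Tfap2b*, which were higher than in all 3 classes with *Zic2*, *Zic5* and *Eya2*. *Osr1*, a factor of mesenchymal progenitors, stood at 124 and 151 CPM and at 0 in both pericyte sums (at least 58.8-fold higher) and both radial glia sums. *Msx1*, a homeobox factor downstream of bone morphogenetic proteins, stood at 136 and 141 CPM and at 0 in pericytes (at least 56.9-fold higher). *Tfap2b*, a neural crest factor, stood at 188 and 118 CPM against 24 and 23.4 CPM (log2 fold change 2.62 ± 0.34 (SE), edgeR adjusted p = 0.000986). *Ebf1*, a helix-loop-helix factor of the vessel wall, was the reverse, at 255 and 332 CPM against 2986 and 2299 CPM in pericytes (log2 fold change -3.14 ± 0.21 (SE), edgeR adjusted p = 1.99e-05). *Foxp1* stood at 353 and 372 CPM against 859 and 624 CPM and was also lower (log2 fold change -1.01 ± 0.20 (SE), edgeR adjusted p = 0.00662), whereas the related *Foxp2*, at 394 and 419 against 189 and 206 CPM, missed the threshold (log2 fold change 1.06 ± 0.34 (SE), edgeR adjusted p = 0.0637). *Foxp2* passed it without predicted doublets (1.13), with narrower limits on UMIs per barcode (1.08) and with no filter on low counts (1.07). It also passed without the pericytes of at least 10 fibroblast-gene UMIs (0.94), a limit that gives no separate support. The call of *Osr1* against pericytes was lost under DESeq2, as was its call and that of *Tbx18* against endothelial cells.

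Of 19 listed genes of the retinoic acid pathway, 11 were tested and 3 had no UMI in fibroblasts. No tested member was lower in any of the 3 comparisons, beside 8.8%, 14.1% and 22.6% of all tested genes lower than in pericytes, endothelial cells and radial glia. With 11 members, the absence of lower calls against pericytes is near that share and is not read as a result about the pathway. Of 11 tested genes, 7 were higher than in pericytes, 6 higher than in endothelial cells, 10 higher than in radial glia, and 6 higher than in all 3, among them *Rdh10*, *Aldh1a2*, *Stra6*, *Crabp1* and *Rarb*, with medians of 1.83, 1.79 and 4.38. *Rdh10*, which oxidizes retinol to retinaldehyde, stood at 219 and 184 CPM against 24 and 14.1 CPM in pericytes and 6.22 and 5.91 CPM in radial glia (log2 fold change 3.38 ± 0.28 (SE), edgeR adjusted p = 5.69e-05, and log2 fold change 5.02 ± 0.22 (SE), edgeR adjusted p = 2.97e-07). *Aldh1a2*, which makes retinoic acid from retinaldehyde, stood at 217 and 139.9 CPM against 5.14 and 1.56 CPM in pericytes (log2 fold change 5.50 ± 0.96 (SE), edgeR adjusted p = 0.00369), a call lost under DESeq2, as was that against endothelial cells. It was detected in 46.7% and 29.3% of fibroblasts thinned to 3000 UMIs and in 0% and 0% of radial glia, or in 71.1% and 53.1% against 0% and 0.134% without thinning. The radial glial share is given beside it, and 0 of 535 and 0 of 748 scored radial glia allow up to 0.687% and 0.492% by the exact 95% limit. Radial glia were chosen with at most 2 UMIs of the 5 fibroblast genes, which leaves out barcodes holding more fibroblast RNA. These shares are therefore no measure of the background in unselected cells.
*Crabp1* and *Crabp2* bind retinoic acid within the cell. *Crabp2* stood at 100.5 and 63.1 CPM and at 0 in both pericyte sums (at least 29.6-fold higher), and *Crabp1* at 79.8 and 88.3 CPM against 0.622 and 1.5 CPM in radial glia (log2 fold change 5.71 ± 0.27 (SE), edgeR adjusted p = 4.58e-07). The receptor *Rarb*, itself induced by retinoic acid, stood at 290.4 and 275 CPM, 65.2 and 93.8 CPM in pericytes and 5.1 and 4.25 CPM in radial glia (log2 fold change 1.83 ± 0.39 (SE), edgeR adjusted p = 0.0104, and log2 fold change 5.86 ± 0.41 (SE), edgeR adjusted p = 3.56e-06). Each of these genes was above both radial glia values in both libraries, although *Crabp2* was also found in Cajal-Retzius cells at 34.1 and 73.7 CPM. *Crabp1* was also found in projection neurons, at 13.1 and 37.4 CPM. The call of the retinol uptake receptor *Stra6* against endothelial cells (edgeR adjusted p = 0.0486) was lost with the library as a block (1.82) and under DESeq2.

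Secreted signals were the longest list. Of 47 tested, 21 were higher and 9 lower than in pericytes, 25 higher and 6 lower than in endothelial cells, 26 higher and 9 lower than in radial glia, and 14 higher than in all 3, with medians of 1.69, 2.19 and 1.66. Placing the 10 genes at 0 in pericytes at their bound moved the first median to 1.61. *Cxcl12*, the chemokine that keeps Cajal-Retzius cells and interneurons in their streams, stood at 1203 and 1018 CPM in fibroblasts, 3.43 and 10.9 CPM in pericytes, 94.9 and 12.5 CPM in endothelial cells and 0.746 and 0.5 CPM in radial glia. It was higher than in pericytes (log2 fold change 7.14 ± 0.73 (SE), edgeR adjusted p = 0.00017) and radial glia (log2 fold change 9.91 ± 0.68 (SE), edgeR adjusted p = 3.38e-06). *Cxcl12* was detected in 88.9% and 84.3% of the fibroblasts thinned to 3000 UMIs, against 0.561% and 0% of radial glia (100% and 93.7% against 1.12% and 0.801% without thinning). Of its receptors in fibroblasts, *Cxcr4* stood at 1.6 and 2.19 CPM and *Ackr3* at 27.1 and 2.74 CPM.

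Bone morphogenetic proteins, which pattern the dorsal midline and restrain callosal axons, were expressed as several members. *Bmp6* stood at 763 and 391 CPM, *Bmp7* at 308 and 239 CPM and *Bmp5* at 262 and 244 CPM. *Bmp6* and *Bmp7* were at 0 in both pericyte sums, which gave at least 198-fold higher and at least 105-fold higher, whereas *Bmp5* was also found in pericytes, at 101 and 65.6 CPM (log2 fold change 1.61 ± 0.35 (SE), edgeR adjusted p = 0.0109). In radial glia *Bmp7* stood at 7.33 and 6.5 CPM (log2 fold change 5.29 ± 0.46 (SE), edgeR adjusted p = 2.76e-05) and *Bmp6* at 1.49 and 3.66 CPM (log2 fold change 7.53 ± 0.81 (SE), edgeR adjusted p = 9.13e-05). The *Bmp6* values of the fibroblast libraries differed by more than those of *Bmp5* and *Bmp7*, and both exceeded every value of the other 3 classes. Against endothelial cells the calls of *Bmp6* and *Bmp7* were lost under DESeq2, with log2 fold changes of 4.33 and 4.18.

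*Wnt4*, a ligand of the non-canonical and canonical Wnt branches, stood at 171 and 109.7 CPM against 6.86 and 3.12 CPM in pericytes (log2 fold change 4.64 ± 0.78 (SE), edgeR adjusted p = 0.00301). *Edn3*, an endothelin that acts on neural crest derivatives, stood at 179 and 171 CPM against 6.86 and 9.38 CPM (log2 fold change 4.33 ± 0.34 (SE), edgeR adjusted p = 3.93e-05) and 0.497 and 0.25 CPM in radial glia (log2 fold change 7.57 ± 0.27 (SE), edgeR adjusted p = 1.6e-07). Both were above all values of the other classes. *Ptn* and *Mdk* encode the heparin-binding growth factors pleiotrophin and midkine. *Ptn* stood at 5708 and 5102 CPM against 1939 and 1152 CPM in pericytes and 1649 and 1418 CPM in radial glia, higher in both libraries, but it missed the threshold in both comparisons (log2 fold change 1.82 ± 0.74 (SE), edgeR adjusted p = 0.132, and log2 fold change 1.94 ± 0.74 (SE), edgeR adjusted p = 0.0539). With the library as a block it passed against radial glia (1.94). *Mdk* stood at 1154 and 1233 CPM against 339 and 406 CPM in pericytes and was higher (log2 fold change 1.69 ± 0.18 (SE), edgeR adjusted p = 0.00023). *Igf2*, the embryonic insulin-like growth factor, had overlapping values in fibroblasts and pericytes, at 675 and 492 against 531 and 588 CPM (log2 fold change 0.07 ± 0.32 (SE), edgeR adjusted p = 0.923), and was near 1 CPM in radial glia (log2 fold change 8.54 ± 0.44 (SE), edgeR adjusted p = 7.6e-07).

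Of 43 tested receptor genes, 14 were higher and 12 lower than in pericytes, 18 higher and 15 lower than in endothelial cells and 21 higher and 8 lower than in radial glia, with medians of 0.33, 0.88 and 1.21. *Pdgfra* and *Pdgfrb*, receptors of platelet-derived growth factors, went opposite ways. *Pdgfra* was at least 84.1-fold higher than in pericytes, where it was at 0. *Pdgfrb* stood at 76.6 and 81.2 CPM against 555 and 352 CPM in pericytes, for which it is a defining gene, and was lower (log2 fold change -2.49 ± 0.34 (SE), edgeR adjusted p = 0.000851). *Robo1*, a receptor of Slit guidance proteins, stood at 1297 and 949.7 CPM against 97.7 and 67.2 CPM in pericytes and 94.1 and 102 CPM in radial glia (log2 fold change 3.78 ± 0.50 (SE), edgeR adjusted p = 0.000789, and log2 fold change 3.62 ± 0.46 (SE), edgeR adjusted p = 0.000157). *Tgfbr3*, the TGF-beta co-receptor betaglycan, stood at 327 and 244 CPM against 75.4 and 116 CPM (log2 fold change 1.57 ± 0.40 (SE), edgeR adjusted p = 0.0228). The neurotrophin receptor *Ngfr*, a gene of pial cells, stood at 52.7 and 47.7 CPM against 6.86 and 6.25 CPM (log2 fold change 2.83 ± 0.50 (SE), edgeR adjusted p = 0.00376) and was detected in 17.8% and 12.1% of the thinned fibroblasts against 0% and 0.134% of radial glia (37.8% and 35% against 0.187% and 0.401% without thinning). *Robo2* stood at 600 and 372 CPM against 20.6 and 141 CPM in pericytes and missed the threshold (log2 fold change 2.56 ± 0.91 (SE), edgeR adjusted p = 0.0854). *Robo2* passed it without predicted doublets (3.42), with narrower limits on UMIs per barcode (2.54) and with no filter on low counts (2.57). It also passed without the pericytes of at least 10 fibroblast-gene UMIs (1.96), a limit that gives no separate support. *Igf1r* was higher than in pericytes (log2 fold change 0.89 ± 0.18 (SE), edgeR adjusted p = 0.00855) and lower than in endothelial cells (log2 fold change -1.31 ± 0.17 (SE), edgeR adjusted p = 0.00045), at 364 and 315 CPM in fibroblasts and 909 and 726 CPM in endothelial cells. The 12 members lower than in pericytes included *Notch1*, *Notch3*, *Eng* and *Ednra*, and *Notch1* was lower than in all 3 classes.

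Junction genes, solute carriers and carrier proteins numbered 29 tested. Of these, 15 were higher and 2 lower than in pericytes, 10 higher and 12 lower than in endothelial cells, the cells of the blood-brain barrier, and 22 higher and 2 lower than in radial glia, with medians of 1.34, 0.31 and 4.24. *Slc6a13*, a transporter of GABA and taurine, stood at 418 and 365 CPM and at 0 in both pericyte sums (at least 154-fold higher). It was detected in 68.9% and 61.4% of the thinned fibroblasts and in 0% and 0% of radial glia (91.1% and 85.3% against 0.187% and 0.267% without thinning). *Slc22a6*, an organic anion transporter, stood at 361 and 279 CPM and at 0 in both pericyte sums (at least 122-fold higher). The related *Slc22a8* was lower than in endothelial cells, at 22.3 and 20.3 CPM against 71.6 and 63.9 CPM in that class (log2 fold change -1.70 ± 0.43 (SE), edgeR adjusted p = 0.014). DESeq2 lost the calls of *Slc6a13* and *Slc22a6* against endothelial cells and that of *Slc22a6* against pericytes.

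*Cldn11*, a claudin of tight junctions known from the arachnoid, stood at 287 and 329.7 CPM against 6.86 and 1.56 CPM in pericytes (log2 fold change 6.06 ± 0.77 (SE), edgeR adjusted p = 0.000609) and 61.6 and 5.55 CPM in endothelial cells (log2 fold change 3.23 ± 0.54 (SE), edgeR adjusted p = 0.00166). *Gja1*, the gap junction protein connexin 43, stood at 549 and 483 CPM against 5.14 and 4.69 CPM in pericytes (log2 fold change 6.56 ± 0.53 (SE), edgeR adjusted p = 4.57e-05) and 19.9 and 23.1 CPM in radial glia (log2 fold change 4.66 ± 0.35 (SE), edgeR adjusted p = 5.37e-06). Both were above all values of the other tested classes. The cadherins went apart. *Cdh2*, N-cadherin, stood at 62.2 and 93.3 CPM in fibroblasts against 652 and 602 CPM in pericytes, 1054 and 1038 CPM in endothelial cells and 1180 and 1004 CPM in radial glia, and was lower than in all 3 (log2 fold change -2.95 ± 0.21 (SE), edgeR adjusted p = 2.46e-05; log2 fold change -3.74 ± 0.21 (SE), edgeR adjusted p = 4.85e-06; log2 fold change -3.64 ± 0.21 (SE), edgeR adjusted p = 1.2e-06). *Cdh11*, a mesenchymal cadherin, stood at 484 and 459.8 against 370.3 and 369 CPM in pericytes and missed the threshold (log2 fold change 0.37 ± 0.34 (SE), edgeR adjusted p = 0.531), and *Cdh1* had no UMI in replicate 1 and stood at 2.74 CPM in replicate 3. *Apod*, a lipid carrier, stood at 1261 and 853 CPM against 159 and 86 CPM in pericytes (log2 fold change 3.12 ± 0.76 (SE), edgeR adjusted p = 0.0195) and 594 and 61.1 CPM in endothelial cells (log2 fold change 1.67 ± 0.70 (SE), edgeR adjusted p = 0.11), the latter passing with the library as a block (2.08).

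The layers of the meninges were described by lists of published marker genes, which summed to 4518 and 3847 CPM for the pia, 1307 and 1107 CPM for the arachnoid and 528.2 and 599.7 CPM for the dura. The sums hold different genes, so they do not rank the layers. Of 8 tested pial genes 7 were higher and 0 lower than in pericytes, and of 8 tested arachnoid genes likewise 7 and 0, with medians of 2.89 and 5.78 (5.15 with genes at 0 in pericytes placed at their bound). *S100a6*, a calcium-binding protein of the pial list, stood at 1356 and 799 CPM against 36 and 28.1 CPM in pericytes (log2 fold change 5.06 ± 0.54 (SE), edgeR adjusted p = 0.000225) and was detected in 66.7% and 67.1% of the thinned fibroblasts against 2.43% and 1.74% of radial glia (86.7% and 88.1% against 8.22% and 6.14% without thinning). Of 5 tested dural genes 2 were higher and 2 lower than in pericytes, with a median of -1.01. The dural genes *Nppc* (0 and 4.39 CPM), *Mgp* (0 and 6.04 CPM), *Alpl* (0 and 13.2 CPM) and *Matn4* (0 and 1.10 CPM) were at 0 in replicate 1 and low in replicate 3, and most of the dural sum came from *Foxp1*, which every class expressed. In pericytes the pial list summed to 605.2 and 707.9 CPM, the arachnoid list to 104.6 and 121.9 CPM and the dural list to 1090 and 909.5 CPM, so that only the pial and arachnoid sums were higher in fibroblasts. *Kctd12*, which was the dural gene higher than in all 3 classes, stood at 128 and 105 CPM against 5.14 and 3.12 CPM in pericytes (log2 fold change 4.63 ± 0.58 (SE), edgeR adjusted p = 0.000575). *Hs3st3a1* of the pial list and *Slc47a1* of the arachnoid list had at most 2 UMIs in a library.

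Imprinted genes of growth control were measured in fibroblasts in all 20 members, and most tested members did not pass the threshold against pericytes. Of 17 tested, 3 were higher and 2 lower than in pericytes, 10 higher and 3 lower than in endothelial cells and 12 higher and 2 lower than in radial glia, with medians of 0.10, 0.72 and 1.56. *Cdkn1c*, an inhibitor of cyclin-dependent kinases, stood at 1017 and 812 CPM against 159 and 178 CPM in pericytes (log2 fold change 2.45 ± 0.46 (SE), edgeR adjusted p = 0.0053) and 7.46 and 9.24 CPM in radial glia (log2 fold change 6.78 ± 0.53 (SE), edgeR adjusted p = 7.68e-06). *Nnat*, neuronatin, stood at 1976 and 1373 CPM against 528 and 189 CPM (log2 fold change 2.25 ± 0.63 (SE), edgeR adjusted p = 0.0367) and 237 and 290.3 CPM in radial glia (log2 fold change 2.78 ± 0.63 (SE), edgeR adjusted p = 0.00492). *Dlk1*, a Notch-type ligand of immature mesenchyme, was lower than in pericytes at 159.6 and 143 against 454 and 362 CPM (log2 fold change -1.42 ± 0.19 (SE), edgeR adjusted p = 0.00106) and at 0 in both endothelial sums, which makes it at least 64.9-fold higher in fibroblasts. *Gnas* stood at 1799 and 1952 CPM against 2563 and 2502 CPM in pericytes, which missed the threshold (log2 fold change -0.42 ± 0.15 (SE), edgeR adjusted p = 0.0831) and passed it with the library as a block (-0.42). The long noncoding RNAs *H19* and *Meg3* did not pass against pericytes (edgeR adjusted p = 0.651 and edgeR adjusted p = 0.215). *Meg3* passed as lower with no filter on low counts (log2 fold change -0.75), with narrower limits on UMIs per barcode (-0.70) and with pericytes of at most 9 UMIs of the 5 genes that chose the fibroblasts (-0.84).

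Genes particular to fibroblasts against pericytes, endothelial cells and radial glia were then sought. They had to be called higher in each comparison, be higher in both libraries and reach 50 CPM or more in both fibroblast sums. They were ranked by the smallest of their 3 log2 fold changes, with Cajal-Retzius cells and projection neurons left out of the ranking. Of 275 genes meeting these conditions, the first 25 were, in order, *Cyp1b1*, *Spock3*, *S100a6*, *Col13a1*, *Col6a1*, *Crabp1*, *Necab1*, *Wnt4*, *Col6a6*, *Tex15*, *Mfap4*, *C1qtnf7*, *Cxcl12*, *Bmp6*, *Edn3*, *Islr*, *Lrrc17*, *Bmp7*, *Frmpd4*, *Adra1a*, *Tmem132c*, *Pdgfra*, *Slc6a13*, *Arhgap20* and *Slc22a6*. Some of these genes were also found in the classes left out, at levels below those of fibroblasts. In projection neurons *Crabp1* stood at 13.1 and 37.4 CPM and *Mfap4* at 35.8 and 75.6 CPM, and in Cajal-Retzius cells *Tex15* stood at 28.0 and 46.4 CPM. Under DESeq2 *Col6a1*, *Bmp6*, *Bmp7*, *Lrrc17*, *Frmpd4*, *Slc6a13* and *Slc22a6* each lost at least 1 of the calls required. The order rests in part on folds against endothelial cells fitted with the 2 replicate 1 barcodes described above. That fold was the smallest for *Bmp6*, *Bmp7* and *Slc6a13*, and without these barcodes the endothelial level of *Bmp6* fell from 56.6 to 3.76 CPM and that of *Bmp7* from 29.98 to 0 CPM. *Cyp1b1*, a cytochrome P450 that oxidizes steroids and retinoids, stood at 116 and 114 CPM in fibroblasts, 3.43 and 1.56 CPM in pericytes, 1.67 and 0 CPM in endothelial cells and 0 in both radial glia sums. *Spock3*, a secreted proteoglycan, stood at 161 and 121 CPM against 2.98 and 4.5 CPM in radial glia (log2 fold change 5.07 ± 0.27 (SE), edgeR adjusted p = 8.48e-07). The spread over cells differed by gene. *Spock3* UMIs came from 19 of 45 and 64 of 143 fibroblasts, and 1 barcode held 18.8% of those in replicate 1. The *Cyp1b1* UMIs came from 34 of 45 and 96 of 143 fibroblasts, and no barcode held more than 8.22% of them in a library. *Tmem132c*, a transmembrane protein, stood at 642 and 554 CPM against 34.3 and 43.8 CPM in pericytes (log2 fold change 3.92 ± 0.43 (SE), edgeR adjusted p = 0.000268). *Islr*, an immunoglobulin and leucine-rich repeat protein of mesenchymal cells, stood at 375 and 340.2 CPM against 5.14 and 7.81 CPM (log2 fold change 5.66 ± 0.66 (SE), edgeR adjusted p = 0.000389) and came from 43 of 45 and 132 of 143 fibroblasts.

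Of 24 tested mitotic genes, 12 were lower and 0 higher than in pericytes (10 lower with DESeq2), 22 were lower and 0 higher than in radial glia (21 with DESeq2), and 0 passed against endothelial cells, with medians of -0.95, -1.54 and -0.08. Against endothelial cells 2 of the 24 were lower at an unadjusted p under 0.05 with edgeR and 1 with DESeq2, which also called 0. *Top2a*, a topoisomerase of dividing cells, stood at 129 and 151 CPM in fibroblasts against 295 and 274 CPM in pericytes (log2 fold change -0.99 ± 0.17 (SE), edgeR adjusted p = 0.0033) and 644 and 648 CPM in radial glia (log2 fold change -2.07 ± 0.17 (SE), edgeR adjusted p = 8.45e-06). *Mki67* stood at 89.4 and 71.3 CPM against 177 and 150 CPM (log2 fold change -1.03 ± 0.22 (SE), edgeR adjusted p = 0.00939). In both cases the fibroblast values lay below those of these classes. *Ube2c* and *Cenpf* missed the threshold against pericytes and passed it with the library as a block (-0.97 and -0.97). Without the pericytes of at least 10 fibroblast-gene UMIs, their pericyte levels fell. *Ube2c* went from 394.3 and 337.5 to 352.6 and 194.3 CPM, and *Cenpf* from 288 and 257.8 to 214.9 and 161.9 CPM.

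The share of cycling cells was read per barcode, as the percent with at least 3 UMIs of the mitotic genes after thinning to 3000 UMIs. It was 20% of fibroblasts in replicate 1 (9 of 45; exact 95% binomial interval 9.58 to 34.6) and 15.7% in replicate 3 (22 of 140; 10.1 to 22.8), or 17.9% ± 3.03 (SD, n = 2). After the same thinning the share in pericytes was 31.1% and 41.3%, in endothelial cells 36.0% and 20% and in radial glia 64.5% and 65.5%. Cajal-Retzius cells and projection neurons, which have left the cell cycle, gave 2.13% and 7.5%, and 3.71% and 6.51%. The thinned fibroblast shares were below both pericyte shares, at or below the endothelial ones, and above those of both neuron classes. This order was not tested. Without thinning the shares were 35.6% and 32.2% in fibroblasts, 36.2% and 52.2% in pericytes, 64% and 57.5% in endothelial cells, 83.6% and 84.3% in radial glia, 18.8% and 27.2% in Cajal-Retzius cells and 8.83% and 13.9% in projection neurons.

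**Figure D4:**
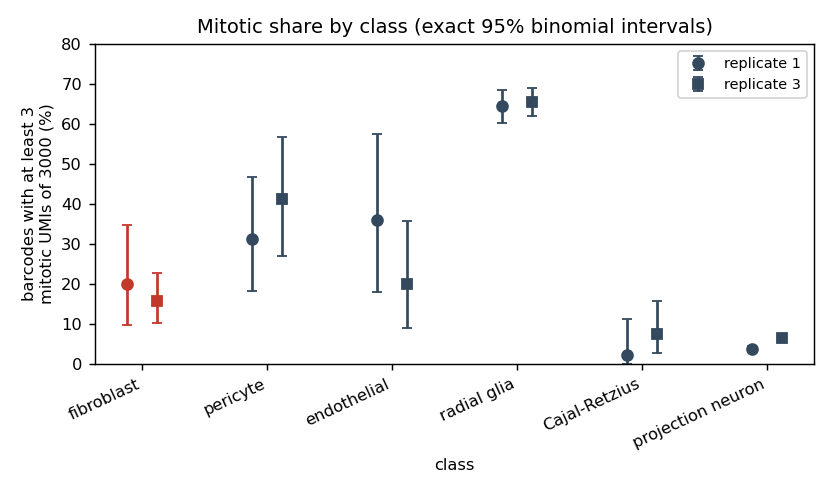
Percent of barcodes with at least 3 mitotic UMIs of 3000 (y axis) by class (x axis), with exact 95% binomial intervals as bars, fibroblasts in red, replicate 1 as circles and replicate 3 as squares. Fibroblasts were at 20% and 15.7%, between the neurons, at 7.5% or less, and the radial glia, at 64.5% and 65.5%.

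Summed levels of most genes were alike in the fibroblasts of the 2 libraries. Of 4098 genes with at least 50 CPM in 1 library, 97.8% were within 2-fold of the other. The 10 with the largest ratio included *Dpp10*, *Cntn5*, *Syt1*, *Erbb4*, *Nrxn3*, *Rmst*, *Nxph1*, *Dscaml1* and *Dlg2*, mostly genes of neurons, and in each of these most UMIs of the higher library were in a single barcode. In replicate 1, 90 of 92 *Erbb4* UMIs, 89 of 97 *Nrxn3* UMIs and 36 of 36 *Nxph1* UMIs were in 1 barcode each, and in replicate 3, 130 of 139 *Rmst* UMIs were. By contrast, the barcode with most *Cxcl12* held 45 of 754 and 40 of 1856 of its UMIs. The share of barcodes with a UMI differed between the libraries for some genes and not for others. After thinning, *Crabp2* was detected in 33.3% and 9.29% of fibroblasts and *Aldh1a2* in 46.7% and 29.3%, while *S100a6* was detected in 66.7% and 67.1%.

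Within the class, barcodes were grouped by their variable genes into 10 clusters (Leiden, resolution 0.8). The clusters are described and not tested, since their genes formed them. A cluster of 26 barcodes, 6 and 20 in the libraries, was led by *Dkk2*, *Lsamp*, *Emcn*, *Trpm3*, *Igfbp7*, *Tgfbi* and *Ogn*. It had the lowest sum of pial genes, 1403 CPM, against 2101 to 6644 CPM in the other clusters, with arachnoid genes at 1916 CPM and dural genes at 1026 CPM. In these barcodes *S100a6* stood at 294.8 CPM and *Crabp2* at 280.6 CPM, compared with 1631 and 11.9 CPM in the cluster with most pial genes. *S100a6* is part of the pial sum by which these clusters were set against each other, so its direction was largely given by that choice. *Slc6a13*, of the arachnoid list like *Crabp2*, stood at 345.8 and 330.2 CPM in the same clusters. Barcodes of the cluster led by *Dkk2* were mixed, with 0 to 16 *Crabp2* UMIs each. *Emcn* and *Igfbp7* also mark vessels, and *Emcn* reached 104.9 CPM here against 0.477 CPM in the other fibroblasts. All 38 *Emcn* UMIs were in replicate 3, with 18 in 1 barcode. *Dkk2*, a gene of the dural list, stood at 187.1 CPM here and at 152.6 and 201.6 CPM in pericytes. Over all fibroblasts *Dkk2* was lower than in pericytes (log2 fold change -2.51 ± 0.70 (SE), edgeR adjusted p = 0.034). That call was lost under DESeq2 and with pericytes of at most 9 fibroblast-gene UMIs. Single barcodes held 7 of 9 and 23 of 70 of its fibroblast UMIs. The part of vessel RNA in this cluster was not tested.
A cluster of 26 barcodes, 9 and 17 in the libraries, was led by histone genes, *Hmmr*, *Birc5* and *Tpx2* and carried 6122 CPM of mitotic genes. Its pial genes at 3510 CPM and arachnoid genes at 1203 CPM were within the range of the other clusters.

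A cluster of 16 barcodes, 8 and 8, was led by *Dgkb*, *Smoc1*, *Spon1* and the opioid precursor *Penk*. *Penk* stood at 283.2 CPM in it, and *Slc6a13*, at 768 CPM, was above its 330.2 CPM in the cluster with most pial genes. A cluster of 9 barcodes with a median of 4404 UMIs was led by *Ptgds*, the prostaglandin D synthase of the arachnoid, at 1101 CPM against 66.4 CPM in the other fibroblasts. A last cluster of 9 barcodes was led by the neural genes *Csmd1*, *Nrg1* and *Rmst*, had a median of 21382 UMIs and held 5 predicted doublets. The dividing cluster and those led by *Dgkb* and *Ptgds* held the same barcodes at the 3 resolutions run, and the cluster led by *Dkk2* at 2 of the 3. At resolution 0.3 the 26 barcodes of the cluster led by *Dkk2* fell in a group of 32, which also held 6 of the 9 of the cluster led by neural genes. At 0.5 all 9 of the latter fell in a group of 43. The other 5 clusters were for the most part joined at the lowest resolution.

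**Figure D5:**
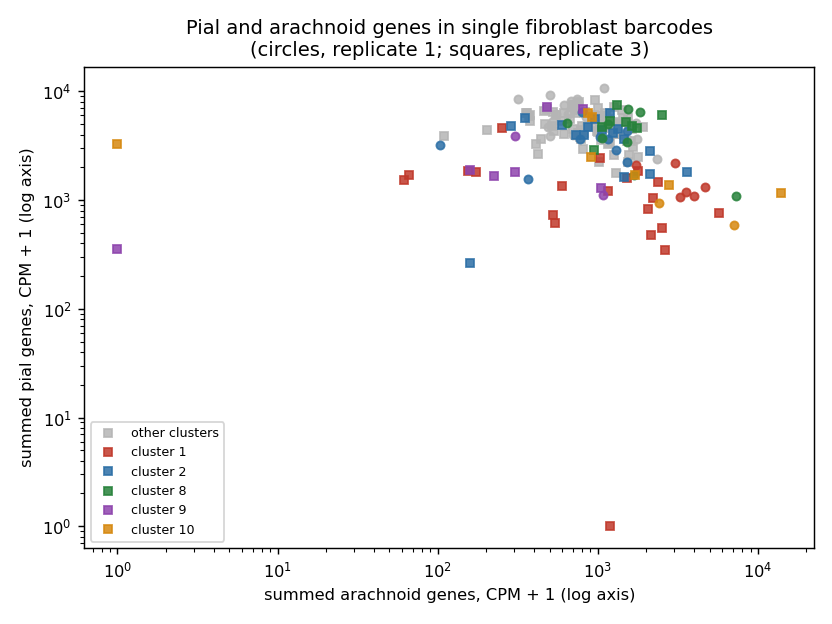
Summed pial genes against summed arachnoid genes in each of the 188 fibroblast barcodes, both as CPM + 1 on log axes, with circles for replicate 1, squares for replicate 3 and colors for 5 of the clusters. Barcodes of cluster 1 (red, led by *Dkk2*) lie lower on the pial axis than most others, and those of the dividing cluster 2 (blue) lie among the rest.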

How the data were processed

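The 2 WT libraries were analysed from the deposited counts. Per the labels the authors made UMI counts per gene and barcode with Cell Ranger 7.0.0 on mm10; intron and cell-calling settings were not given in the sources used here. The counts were used as deposited, with 32285 genes per library and 0 columns left unmapped. The members, gene lists, tests and alternatives were chosen with earlier results of these data known.

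Counts were summed per class and library (8 sums of 4 classes) and compared in 1 fit with edgeR 4.0.16 (R 4.3.3), using TMM scaling, filterByExpr, a prior count of 2 and Benjamini-Hochberg adjustment at 0.05. Genes that chose or limited fibroblasts or radial glia were not tested. A fold against a class at 0 is a bound from 3 UMIs over the class, and at 1 to 3 UMIs a ratio with an exact 95% interval. Sums with the same number come from the same library, so the number pairs them. Their deviations correlated at 0.086 to 0.214 over 5052 genes. The main fit had no block. DESeq2 1.42.0, other scalings, filters and class limits were alternatives. Clusters (scanpy 1.11.5, leidenalg 0.10.2, Python 3.11.15) used 1500 variable genes, 12 components and 12 neighbours, with resolutions of 0.3 and 0.5 run afterwards. The highest Scrublet scores, at an assumed 0.8% per 1000 barcodes, were called doublets.

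The genes named were the most abundant of each list in fibroblasts with those whose role is explained, the first 25 by the ranking given, and the 10 largest differences between libraries. *Slc22a8*, *Cxcr4*, *Ackr3*, *Cdh1* and genes named only as list members or cluster leaders were added after their values were seen. Some genes that the rule takes in are not reported here. The tests were tested on simulated data first. Binomial intervals and zero-count bounds cover counting error only.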

Additional observations from a re-analysis of the deposited data

How the results depend on the processing

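The counts of genes past the threshold ranged from 1479 (DESeq2) to 2309 (no filter on low counts) against pericytes, from 2390 to 3467 against endothelial cells and from 3798 to 6374 against radial glia, each within 1.5 times of the reported 1745, 2819 and 4880. They could not be given without a replicate, since 4 sums leave no residual degrees of freedom. With library sizes only, the median of all genes against radial glia moved from 0.018 to -0.095, and the share of higher calls from 53.8% to 45.8%. Of 4609 values of the 133 named genes under alternatives, 4416 kept direction and call, 39 lost and 117 gained a call (32 of the gains with no filter on low counts), and 37 turned direction, the cause of which was not tested. Beside the changes given in the text, the replicate block lost *Fabp7* (1.64) and *Slc13a3* (3.24) against endothelial cells. The fibroblast share was 0.825% to 1.91% without a replicate, and the mitotic share 15.7% to 20%. With at least 5 UMIs of the 5 fibroblast genes, the mitotic share was 22.4%.

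The values that turned direction, as log2 fold changes, were mostly near 0. Against pericytes they were -0.070 for *Ppib*, -0.15 for *Igf2* and -0.12 for *Hspg2* with at least 5 UMIs of the 5 genes. With at least 20 they were -0.030 for *Hspg2* and 0.00032 for *Prrx1*. With pericytes of at most 9 such UMIs they were 0.33 for *Tbx15*, -0.058 for *Hspg2*, 0.59 for *Prrx1*, 0.22 for *Lamb1* and -0.094 for *Slc22a8*. Narrower limits on UMIs per barcode gave 0.0032 for *Prrx1*, 0.047 for *Anpep* and 0.040 for *Lamb1*. At most 10 neural UMIs gave 0.0083 for *Anpep* and 0.022 for *Lamb1*, no predicted doublets 0.11 for *Anpep*, and library sizes only -0.0012 for *Hspg2*. Without the neural cluster and the barcode with most *Erbb4*, a setting added after the data were seen, *Hspg2* was at -0.00098, *Prrx1* at 0.039, *Anpep* at 0.0475 and *Lamb1* at 0.081. Against endothelial cells, *Fn1* was at -0.0092 with DESeq2, and at least 5 UMIs gave -0.097 for *Fn1*, -0.066 for *Col4a2*, -0.0704 for *Sparcl1*, 0.012 for *Top2a* and -0.018 for *Lamc1*. Narrower limits on UMIs per barcode gave -0.29 for *Fn1* and 0.14 for *Birc5*. *Ube2c* and *Mki67* were at -0.062 and -0.071 with at least 20 UMIs, -0.023 and -0.0044 with at most 10 neural UMIs and -0.066 and -0.057 in the added setting, and *Ube2c* at -0.021 with no predicted doublets. Against radial glia, *Emcn* was at -0.65 without replicate 3 and 4.68 without replicate 1.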
